A study of Mus musculus with 24 samples.

Results

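The 10 genes described here are parts of the circadian clock of mouse heart. Of these, 4 are output factors of the clock, the PAR bZIP transcription factors Dbp, Tef and Hlf and the repressor Nfil3. The other 6, Per1, Per2, Per3, Arntl, Nr1d1 and Nr1d2, belong to the core loop. They were chosen by name on a two-colour Agilent array: 17 of its 41174 probes carried one of these gene names, and each gene was read from its probe with the highest mean heart signal. Of the 10 genes, 9 passed the filter on dim probes and were among the 11419 features tested. Per3 did not pass, because its single probe was not well above background on any of the 24 arrays.

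In the circadian loop, ARNTL (also called BMAL1) pairs with CLOCK on E-box sequences and switches on the Per and Cry genes, whose proteins then restrain that pair. The nuclear receptors NR1D1 and NR1D2 (REV-ERB alpha and beta) repress Arntl and Nfil3 through ROR elements. Dbp, Tef and Hlf are driven by the same loop and activate genes through D-box sequences, where NFIL3 competes with them. In heart muscle these outputs reach genes of metabolism and of ion channels, and their messages rise and fall over the day.

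The hearts came from mice of 12 to 16 weeks described as strain-matched. They were either wild type for MuRF1 (MuRF1+/+) or labelled MuRF1 Tg+, and MuRF1 is a muscle ubiquitin ligase. The sources used here do not name the promoter of the transgene. Each mouse had a sham operation or ischemia-reperfusion (I/R), a temporary tie around the left anterior descending (LAD) branch of the coronary arteries. From each of 12 hearts 2 pieces were taken, one above and one below the tie or, in sham hearts, the place a tie would have had. This gave 8 groups of 3 arrays, 1 for each combination of genotype, surgery and piece. Every array paired heart RNA in Cy5 with a common reference in Cy3, RNA pooled from whole C57BL/6 pups on postnatal day 1. Values below are log2 ratios of heart to reference, so they compare arrays for 1 gene and not 1 gene with another. The sources used here give neither the clock time of harvest nor how long the heart was reperfused.

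Some I/R arrays had a weak heart channel. The share of Cy5 spots well above background was 34.6% to 43.3% in sham and 9.9% to 38.3% in I/R. It was under 25% on 5 I/R arrays, called weak below: replicates 1 and 2 of wild type above, replicate 1 of wild type below, and replicates 2 and 3 of Tg+ below. Without them wild-type I/R above and Tg+ I/R below keep 1 array each and wild-type I/R below keeps 2. A value given without the weak arrays therefore rests on that single I/R array in wild type above and Tg+ below, and its p takes the spread from the other groups.

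All 7 ventricular cardiomyocyte markers were tested, and their mean log2 ratio lay between 3.21 and 3.99 on sham and between 2.72 and 3.65 on I/R arrays. After I/R 2, 1, 2 and 3 of these 7 fell in wild type above and below and Tg+ above and below (limma adjusted p under 0.05), with list medians of -0.26, -0.34, -0.22 and -0.70. Actc1, a cardiac actin, was among them each time (-1.88, -1.31, -1.32 and -1.97). Of 5 endothelial markers 3, 2, 0 and 2 fell, and of 5 macrophage markers 3, 1, 3 and 2 rose. Of 4 atrial markers 1, 0, 2 and 1 rose, with medians of 3.27, 0.57, 3.01 and 1.37. Of 5 fibroblast markers 0, 0, 1 and 1 rose, with medians of 0.71, 0.23, 0.79 and 0.90. Of 3 smooth muscle markers 1, 0, 1 and 1 rose and 1, 0, 1 and 0 fell. The 1 epicardial marker tested differed by 1.58, 0.45, 1.58 and 0.99 and passed in all but wild type below. Of all features 7.3%, 3.46%, 8.38% and 17.1% fell and 5.96%, 2.14%, 6.94% and 15.3% rose in the same order. The part of these shifts in the clock values below was not tested. In pieces of tissue, fewer cells of a type and less RNA per cell cannot be told apart. With 3 arrays a group, the number of arrays sets how precise each value can be.

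Promoter sequences of the members are shown first, because E-boxes, D-boxes and ROR elements are where the loop is known to act on its own genes. A RefSeq promoter (build GRCm38.p6, 250 bases before a transcription start and 50 after it) was found for 9 of the 10 members, 12 promoters in all; Per2 had none in the table. Both strands were searched for the E-box CACGTG, the D-box TTANNTAA and AGGTCA, the half-site that forms the core of a ROR element. The E-box and the D-box read the same on both strands, and no matches overlapped. Among all 32851 promoters in the table, 7.15% held the E-box, 6.0% the D-box and 16.3% the ROR half-site. The 6 sequences below belong to members whose ratios changed after I/R, and capitals mark the matches.
Tef (start 1, chr15:81802423-81802722, + strand): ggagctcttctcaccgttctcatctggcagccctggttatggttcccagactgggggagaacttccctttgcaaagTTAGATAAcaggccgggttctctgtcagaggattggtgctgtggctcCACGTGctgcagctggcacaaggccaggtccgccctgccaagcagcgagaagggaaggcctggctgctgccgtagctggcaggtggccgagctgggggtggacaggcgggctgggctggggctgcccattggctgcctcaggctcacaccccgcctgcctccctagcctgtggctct
Tef (start 2, chr15:81811164-81811463, + strand): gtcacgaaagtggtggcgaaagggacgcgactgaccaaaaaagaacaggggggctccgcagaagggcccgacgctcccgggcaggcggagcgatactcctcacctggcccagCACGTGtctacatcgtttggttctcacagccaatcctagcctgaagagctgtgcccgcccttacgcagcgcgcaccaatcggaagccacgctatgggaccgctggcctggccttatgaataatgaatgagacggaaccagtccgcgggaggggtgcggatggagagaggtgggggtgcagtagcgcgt
Nfil3 (chr13:52980990-52981289, - strand): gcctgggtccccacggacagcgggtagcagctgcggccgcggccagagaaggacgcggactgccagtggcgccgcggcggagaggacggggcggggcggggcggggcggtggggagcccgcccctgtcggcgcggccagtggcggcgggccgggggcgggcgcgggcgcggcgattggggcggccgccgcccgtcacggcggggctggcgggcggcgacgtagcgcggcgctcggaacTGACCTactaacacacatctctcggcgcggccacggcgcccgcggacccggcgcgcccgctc
Nr1d2 (chr14:18239057-18239356, - strand): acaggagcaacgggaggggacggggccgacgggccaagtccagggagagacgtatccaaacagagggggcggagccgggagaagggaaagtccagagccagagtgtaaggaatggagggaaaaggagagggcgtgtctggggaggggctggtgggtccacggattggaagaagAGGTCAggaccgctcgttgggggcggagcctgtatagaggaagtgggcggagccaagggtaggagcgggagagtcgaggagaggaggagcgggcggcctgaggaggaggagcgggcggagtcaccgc
Dbp (chr7:45704997-45705296, + strand): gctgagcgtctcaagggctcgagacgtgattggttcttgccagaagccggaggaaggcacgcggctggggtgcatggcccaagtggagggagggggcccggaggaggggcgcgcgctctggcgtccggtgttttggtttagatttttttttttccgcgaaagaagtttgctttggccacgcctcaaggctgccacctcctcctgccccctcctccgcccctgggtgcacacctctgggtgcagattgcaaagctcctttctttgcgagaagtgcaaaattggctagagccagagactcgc
Hlf (chr11:90390868-90391167, - strand): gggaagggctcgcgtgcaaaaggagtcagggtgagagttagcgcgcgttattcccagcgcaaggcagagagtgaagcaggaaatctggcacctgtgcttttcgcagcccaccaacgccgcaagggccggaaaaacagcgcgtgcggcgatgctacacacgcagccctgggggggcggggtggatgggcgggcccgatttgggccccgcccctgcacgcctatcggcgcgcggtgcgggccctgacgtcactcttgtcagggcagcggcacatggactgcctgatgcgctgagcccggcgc

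Both Tef promoters held an E-box, beginning at -127 in the first and -138 in the second, counted from the start site. The first also held a D-box, TTAGATAA, at -174. The Nfil3 window held the ROR half-site on its minus strand at -12, and that of Nr1d2 held it on the plus strand at -77. The windows of Dbp, Hlf and Nr1d1 had none of the letters searched. Of the members not printed, Per1 held an E-box at -166 and a ROR half-site at -137, Per3 held the D-box TTATGTAA at -205 and -158, and Arntl held the ROR half-site at 32 in its second promoter. A match is a run of letters, not a measured binding site.

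Each of the PAR bZIP factors fell after I/R in both genotypes and in both pieces, and Nfil3 rose. Dbp, an activator of D-box genes, stood at 3.01, 2.91 and 2.69 in wild-type sham hearts above the tie site (replicates 1 to 3 in each list) and at 2.94, 2.85 and 2.83 below it. In Tg+ sham hearts Dbp was 2.87, 2.51 and 2.91 above and 3.12, 2.79 and 2.98 below. After I/R it was 1.67, 1.41 and 1.99 above and 0.92, 1.91 and 1.60 below in wild type. In Tg+ I/R hearts it was 2.02, 2.20 and 1.79 above and 1.89, 0.87 and 1.14 below. All 12 I/R arrays lay below all 12 sham arrays, as was so for 2.75% of all features. The lowest Dbp ratios, 0.92, 0.87 and 1.14, were on 3 of the 5 weak arrays, and the other arrays of those groups still lay below every sham array.

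The fall of Dbp was 2.27-fold in wild type above the tie (log2 -1.18 ± 0.24 SE, limma adjusted p = 0.00363) and 2.63-fold below it (-1.39 ± 0.24, adjusted p = 0.0023). In Tg+ hearts Dbp fell 1.69-fold above (-0.76 ± 0.24, adjusted p = 0.0362) and 3.17-fold below (-1.67 ± 0.24, adjusted p = 0.000125). Ordered by group mean, the sham groups ran from 2.97 (Tg+ below) through 2.87 in both wild-type pieces to 2.76 (Tg+ above). The I/R groups followed at 2.00 (Tg+ above), 1.69 (wild type above), 1.48 (wild type below) and 1.30 (Tg+ below). Neighbours within each surgery overlapped, and the step between sham and I/R was the one without overlap. The SD of a group was 0.06 to 0.23 in sham and 0.20 to 0.53 in I/R hearts. Without the 5 weak arrays the Dbp differences were -0.88, -1.12, -0.76 and -1.08 in the same order (adjusted p = 0.00429, 0.000181, 0.000303 and 0.00117), the first and the last from 1 I/R array each.

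Tef, the thyrotroph embryonic factor of the same family, fell in every comparison as well. Its ratio in wild-type sham hearts was 1.06, 1.04 and 1.11 above and 1.01, 1.09 and 1.00 below. In Tg+ sham hearts it was 1.33, 0.90 and 1.26 above and 1.23, 0.89 and 1.24 below. In wild-type I/R hearts Tef read -0.22, 0.13 and 0.23 above and -0.03, 0.39 and 0.08 below. In Tg+ I/R hearts it read 0.57, 0.12 and 0.48 above and 0.13, 0.02 and -0.05 below. No I/R array reached the lowest sham array, so the surgeries did not overlap for Tef either. The falls were 2.03-fold (log2 -1.02 ± 0.14, limma adjusted p = 0.000275) and 1.85-fold (-0.89 ± 0.14, adjusted p = 0.00164) in wild type above and below. In Tg+ hearts Tef fell 1.71-fold above (-0.78 ± 0.14, adjusted p = 0.00218) and 2.12-fold below (-1.08 ± 0.14, adjusted p = 8.05e-05). Of the 3 other Tef probes none passed the filter on dim probes.

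Hlf, the hepatic leukemia factor, completed the family. Its ratio ran from 0.41 to 1.00 (median 0.63) over the 12 sham arrays and from -0.24 to 0.25 (median -0.01) over the 12 I/R arrays. The ranges did not overlap. Hlf was well above background on all 12 sham arrays and on 7 of the 12 I/R arrays, so part of its I/R values lie at the dim end, where the ratio is pulled toward 0. No I/R group had it so on all 3 arrays, and Hlf passed the filter on dim probes through sham groups only. As it was higher in sham, its fall and the gap between the ranges are not independent of that filter. Hlf fell by 0.52 and 0.53 on the log2 scale in wild type above and below (both ± 0.12 SE, limma adjusted p = 0.00891 and 0.0143). In Tg+ hearts it fell by 0.77 and 0.75 (both ± 0.12, adjusted p = 0.00066 and 0.000313). Without the 5 weak arrays the wild-type difference above was -0.44, from 1 I/R array, and did not pass (adjusted p = 0.109). The other Hlf differences then passed, that of Tg+ below (-0.68, adjusted p = 0.0159) also from 1 I/R array.

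Nfil3, also called E4BP4, is the bZIP repressor that binds the same D-box as the other output factors. It went the other way. Its sham values lay close together, between -0.68 and -0.48 on all 12 arrays. After I/R it read 0.46, 0.42 and 0.24 above and 0.32, 0.72 and 0.74 below in wild type. In Tg+ I/R hearts it read -0.49, 0.57 and 0.20 above and -0.16, 0.70 and 0.43 below. On 11 of the 12 I/R arrays Nfil3 stood above every sham array, and the exception was Tg+ above replicate 1. The pieces with that number were the lowest of their groups both above and below. How many of all features stood above every sham array on 11 of the 12 I/R arrays was not counted.

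Nfil3 rose 1.87-fold in wild type above (log2 0.90 ± 0.20, limma adjusted p = 0.00726) and 2.19-fold below (1.13 ± 0.20, adjusted p = 0.00307). In Tg+ hearts it rose 1.65-fold above (0.72 ± 0.20, adjusted p = 0.023) and 1.87-fold below (0.90 ± 0.20, adjusted p = 0.00347). A second, dimmer Nfil3 probe moved the same way by group means, from -0.48 to -0.12 in wild type above, from -0.44 to 0.14 below, from -0.54 to -0.12 in Tg+ above and from -0.48 to -0.16 below. Without the 5 weak arrays the Nfil3 difference in Tg+ below was 0.42 (adjusted p = 0.24) and no longer passed; its single I/R array was replicate 1, the lowest of its group. The other 3 were 0.77, from 1 I/R array, 1.27 and 0.72, and passed. Neutrophil markers moved with these changes, beside the marker shifts given above: all 3 that were tested, S100a8, S100a9 and Retnlg, rose in each of the 4 comparisons, and their mean ratio was -2.85 to -2.52 on sham and -1.62 to 0.63 on I/R arrays. Their part in the Nfil3 values was not tested.

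**Figure D1:**
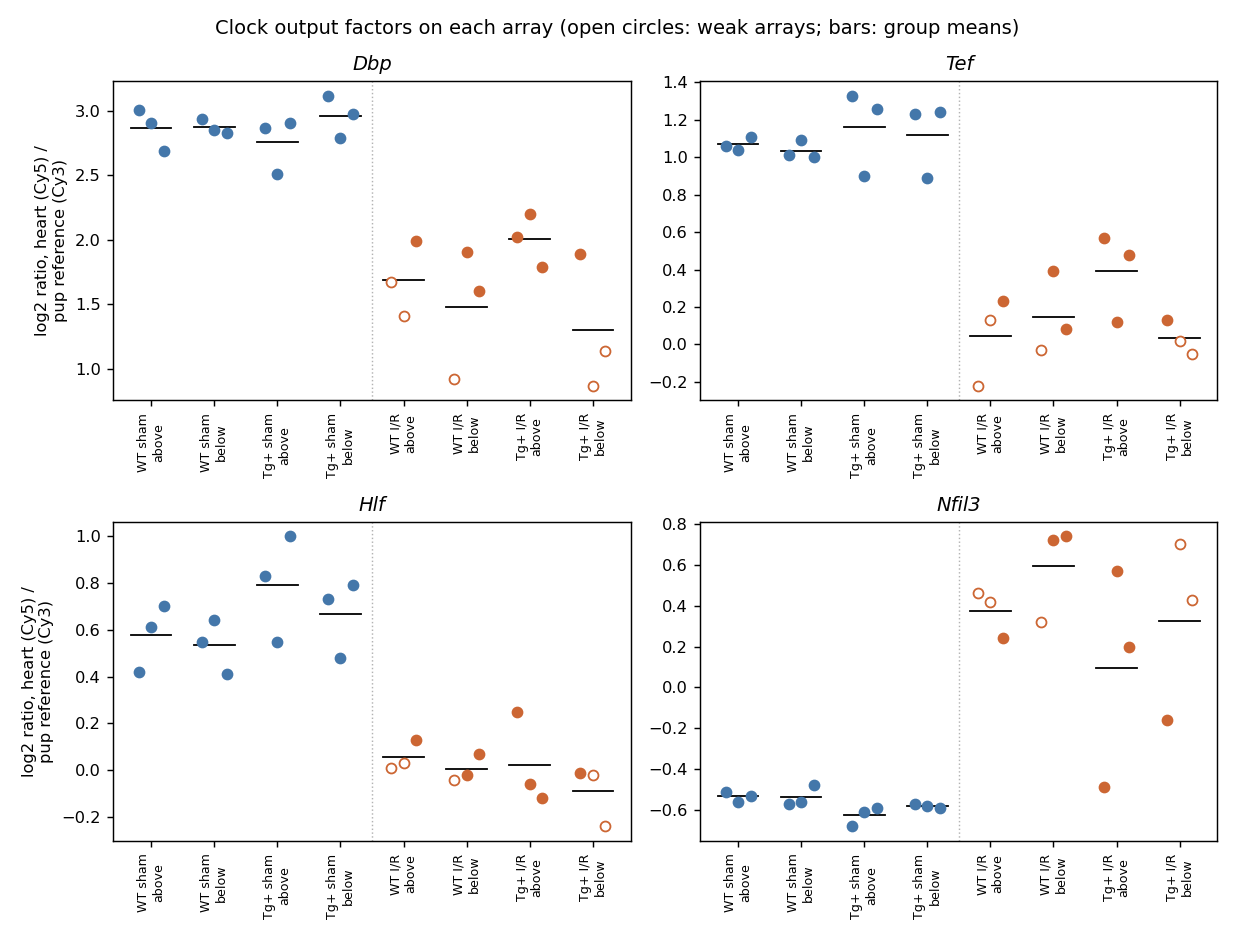
Log2 ratio of heart (Cy5) to pup reference (Cy3) of the output factors on each of 24 arrays, by group, with 3 arrays a group; bars are group means and open circles the 5 weak arrays. For Dbp, Tef and Hlf every I/R array lies below every sham array, and for Nfil3 11 of 12 I/R arrays lie above every sham array.

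The output factors thus passed in all 4 comparisons of I/R with sham, 3 lower and 1 higher each time, while the core genes mostly did not. In wild type above, 4 of the 9 tested members passed, where 13.3% of all features did (7.3% lower, 5.96% higher). In wild type below it was 5 of 9, where 5.6% of all features passed (3.46% lower, 2.14% higher). In Tg+ hearts it was 5 of 9 above, beside 15.3% of all features (8.38% lower, 6.94% higher), and 5 of 9 below, beside 32.5% (17.1% lower, 15.3% higher). Across the array 1.5% of features were called lower in all 4 comparisons, as Dbp, Tef and Hlf were, and 0.928% higher in all 4, as Nfil3 was. Hlf had passed the filter on dim probes through sham groups only, as given above. The median difference of all features was 0 in each comparison, against -0.77, -0.71, -0.77 and -0.92 for the 4 output factors and -0.11, -0.02, -0.04 and -0.06 for the 5 core genes tested. The output median takes in the rise of Nfil3 with the 3 falls. Mean Cy5 signal was 46.2 (Per2) to 139 (Nr1d2) for the core genes and 80.1 (Hlf) to 1580 (Dbp) for the output factors. Dim ratios are pulled toward 0, and the part of brightness in this contrast was not tested.

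**Figure D2:**
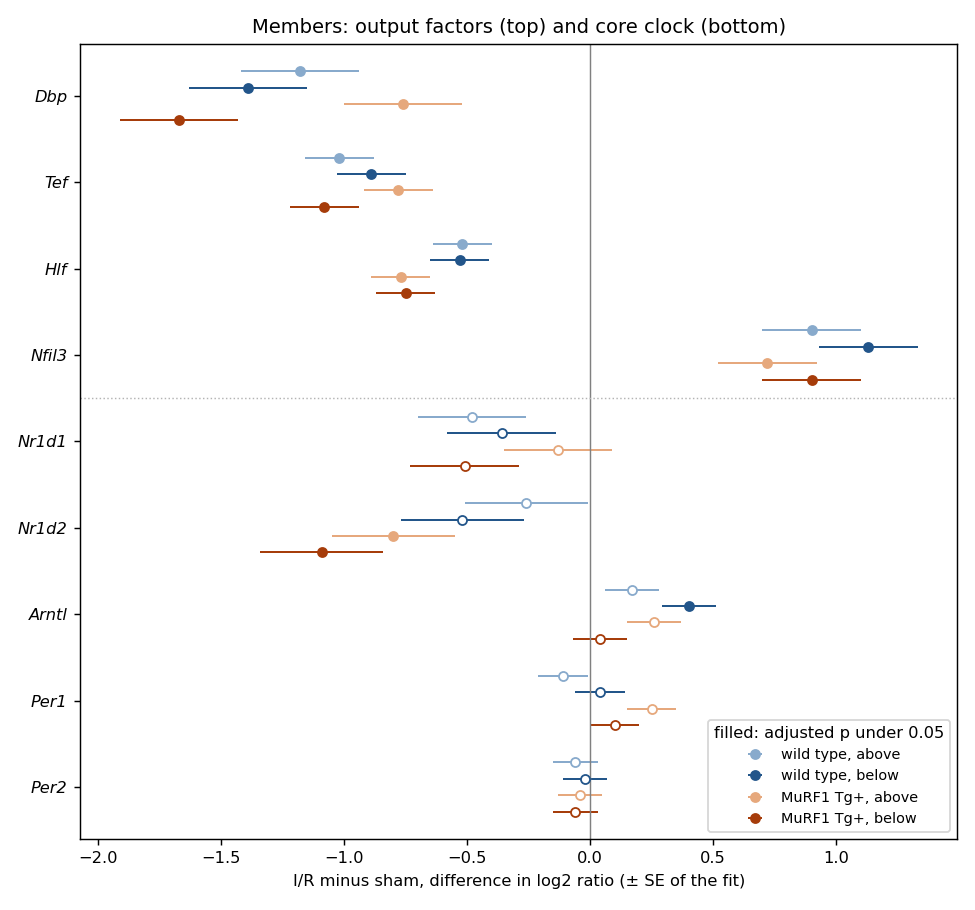
Difference in log2 ratio, I/R minus sham, with the standard error of the fit, for the 9 tested members in each genotype and piece (3 arrays against 3); filled circles have a limma adjusted p under 0.05. Dbp, Tef and Hlf lie left of 0 and Nfil3 right of 0 in all 4 comparisons, while only 3 of the 20 core values are filled.

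Calls were also read with the slide that carried an array taken into account. On the 4 slides that held 1 sham and 1 I/R array of the same genotype and piece, Dbp differed by -1.34 and -1.23 in wild type above and below and by -0.71 and -2.11 in Tg+. On the same slides Tef differed by -1.28, -0.92, -1.14 and -1.21, Hlf by -0.41, -0.34, -1.06 and -0.80, and Nfil3 by 0.97, 1.23, 1.16 and 1.29. The arrays used for I/R in wild type above and Tg+ below on those slides were weak ones. With slide as a block in the fit, the Dbp differences were -1.25, -1.41, -0.54 and -1.80, and only that of Tg+ below passed (limma adjusted p = 0.0884, 0.108, 0.369 and 0.0301). Nfil3 differed by 0.89, 0.93, 0.55 and 0.93 and passed in none of the 4 (adjusted p = 0.138, 0.218, 0.261 and 0.0973). Tef did not pass in wild type below (-0.89, adjusted p = 0.0882), nor did Hlf in wild type (-0.38 and -0.58, adjusted p = 0.232 and 0.145). The other differences of Tef and Hlf passed. Why these calls were lost was not tested. The size of Dbp's fall also depended on the ratio used: it was -0.62, -0.83, -0.37 and -0.86 with Agilent's own log ratio, and -2.19, -2.14, -2.18 and -2.70 in the Cy5 channel alone.

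Leaving out 1 array touched mainly the Tg+ pieces above the tie. The Dbp call there held without Tg+ sham above replicate 2 and was lost in the other 5 fits (adjusted p up to 0.149). That of Nfil3 was lost without Tg+ sham above replicates 1 and 3 and without Tg+ I/R above replicates 2 and 3 (adjusted p up to 0.133). The Hlf call in wild type below was lost without wild-type sham below replicate 1 (adjusted p = 0.0528) and without replicate 2 (adjusted p = 0.0701). The other calls of the output factors held in each of their 6 such fits.

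Among the core genes Nr1d2 fell after I/R in both pieces of Tg+ hearts. Nr1d2, the repressor REV-ERB beta, read 1.80, 1.50 and 1.82 in Tg+ sham hearts above and 1.65, 1.12 and 1.51 below. After I/R it read 1.18, 0.87 and 0.67 above and 0.66, 0.10 and 0.25 below in Tg+ hearts. In both pieces every Tg+ I/R array lay under every Tg+ sham array, as did 23.6% of all features above and 26.3% below. In wild type Nr1d2 read 1.28, 1.38 and 1.58 in sham above, 1.23, 1.66 and 1.41 in sham below, 1.36, 0.70 and 1.41 in I/R above and 0.22, 1.15 and 1.37 in I/R below. There sham and I/R overlapped, and the lowest I/R values, 0.70 and 0.22, were on weak arrays.

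Nr1d2 fell 1.74-fold in Tg+ above (log2 -0.80 ± 0.25, limma adjusted p = 0.0364) and 2.13-fold below (-1.09 ± 0.25, adjusted p = 0.00386). Its probe was well above background on 1 of the 3 Tg+ I/R arrays below, so that fold is set against a group measured in part. With slide as a block neither call held (-0.74 above and -1.11 below, adjusted p = 0.25 and 0.12). In wild type Nr1d2 differed by -0.26 above and -0.52 below (adjusted p = 0.492 and 0.246), with 95% intervals of -0.79 to 0.27 and -1.05 to 0.01. The difference between the genotypes in this response was -0.54 ± 0.35 above (adjusted p = 0.757) and -0.57 ± 0.35 below (adjusted p = 0.543), so it was not shown to differ. The call above was lost without Tg+ sham above replicates 1 and 3 and Tg+ I/R above replicates 2 and 3 (adjusted p up to 0.151). Without the 5 weak arrays Nr1d2 differed by -0.80 and -0.77 in Tg+ above and below (adjusted p = 0.000746 and 0.0263) and by 0.00 and -0.17 in wild type, with 1 I/R array in Tg+ below and in wild type above.

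Nr1d1, or REV-ERB alpha, passed in no comparison. It was well above background on all 12 sham arrays but on only 7 of the 12 I/R arrays. Its sham ratio ran from 0.60 to 1.07 (median 0.80) and its I/R ratio from -0.10 to 0.94 (median 0.51). On 7 of the 12 I/R arrays it lay below the lowest sham array, and on the other 5 it lay within the sham range. The lowest readings, -0.10, 0.00, 0.10 and 0.13, were all on weak arrays. I/R minus sham was -0.48 and -0.36 in wild type above and below and -0.13 and -0.51 in Tg+ (all ± 0.22 SE, limma adjusted p = 0.149, 0.377, 0.712 and 0.081). Without the weak arrays these became 0.04, -0.06, -0.13 and -0.18, the first and the last from 1 I/R array.

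Arntl, the activator at the centre of the loop, was dim: its probe was well above background on 12 of the 24 arrays. It rose after I/R in wild type below the tie, from -0.18, -0.38 and -0.17 in sham to 0.11, 0.12 and 0.23 (log2 0.40 ± 0.11, limma adjusted p = 0.0419). The 2 groups did not overlap, and 9.37% of all features stood higher there in this way. This call was lost in each of the 6 fits that left out an array (adjusted p from 0.0571 to 0.172) and with slide as a block (0.48, adjusted p = 0.236). In wild type above, Arntl read -0.05, -0.27 and -0.20 in sham and 0.15, -0.12 and -0.04 in I/R, a difference of 0.17 (adjusted p = 0.308). In Tg+ hearts Arntl differed by 0.26 above (adjusted p = 0.116) and by 0.04 below (adjusted p = 0.768), from -0.37, 0.00 and -0.37 to 0.03, 0.08 and -0.08 and from -0.42, -0.06 and -0.28 to -0.25, -0.13 and -0.25.

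The Period genes, the negative limb of the loop, showed no call. Per1 lay between -0.51 and -0.22 on sham arrays and between -0.61 and -0.10 on I/R arrays. Its differences were -0.11 and 0.04 in wild type and 0.25 and 0.10 in Tg+ above and below (all ± 0.10, limma adjusted p = 0.468, 0.859, 0.0897 and 0.457). In Tg+ above, Per1 read -0.50, -0.22 and -0.45 in sham and -0.10, -0.19 and -0.12 in I/R, without overlap, and 25% of all features stood higher there in this way. That difference passed without Tg+ sham above replicate 2 (0.34, adjusted p = 0.0486) and without the 5 weak arrays (0.25, adjusted p = 0.0287). Per2 was well above background on 9 sham and 2 I/R arrays, with differences of -0.06, -0.02, -0.04 and -0.06 and no call. Below the tie it was not well above background on any I/R array of either genotype, and in sham it was so on 2 of 3 wild-type and 1 of 3 Tg+ arrays. Per3 had no reading above background to compare.

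**Figure D3:**
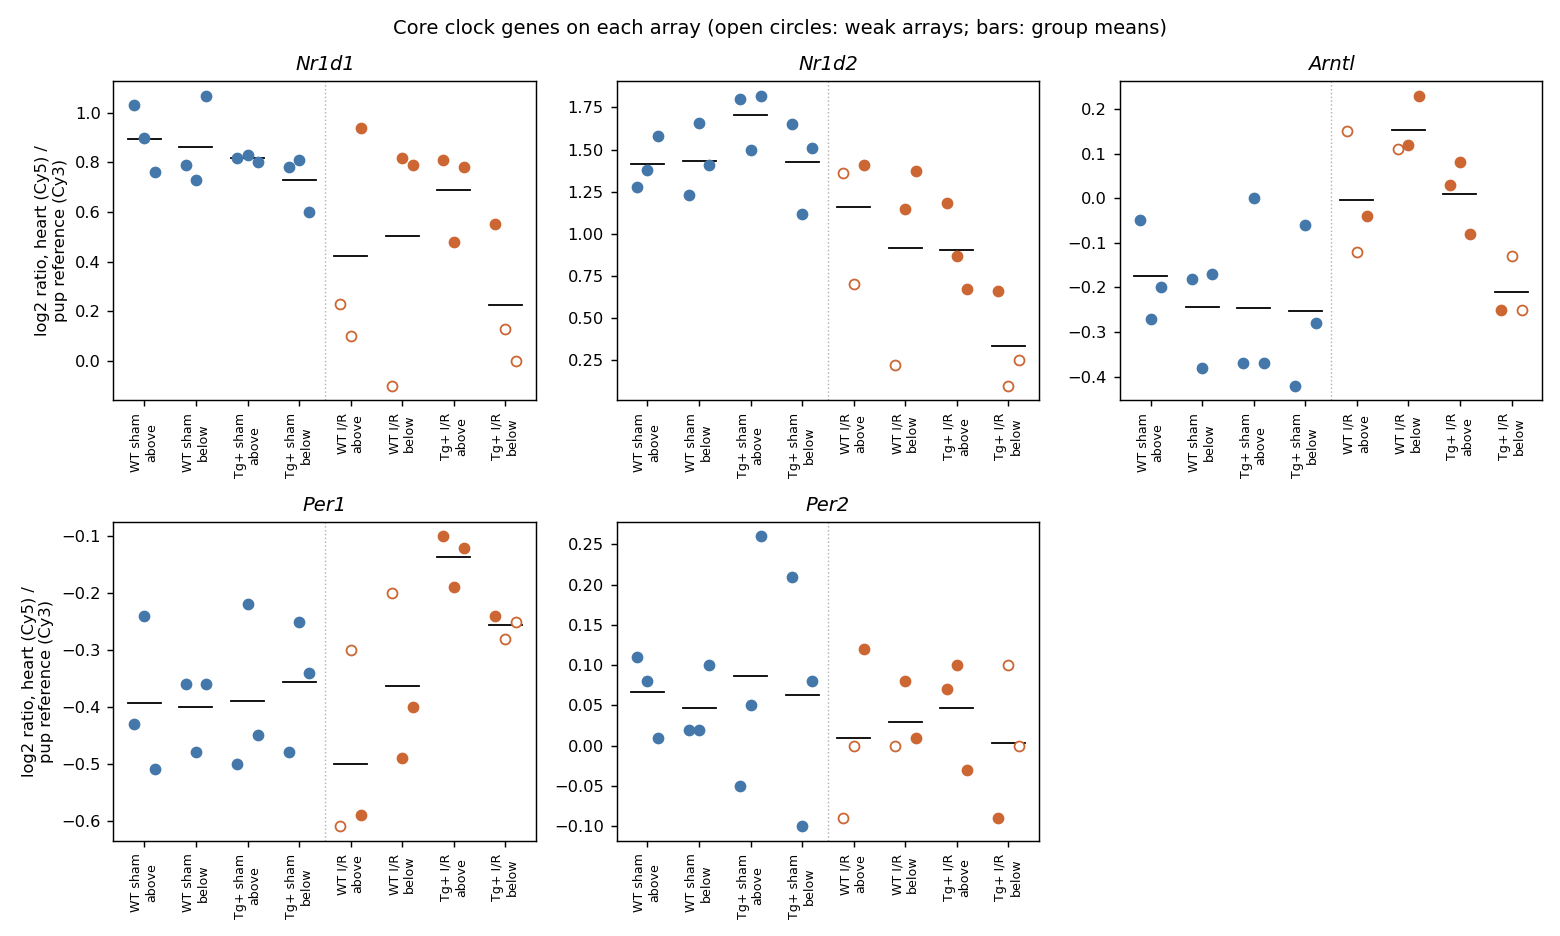
Log2 ratio of heart (Cy5) to pup reference (Cy3) of the 5 tested core clock genes on each of 24 arrays, by group, with 3 arrays a group; bars are group means and open circles the 5 weak arrays. The lowest Nr1d1 and Nr1d2 values sit on weak I/R arrays, and Per1 and Per2 overlap between sham and I/R in wild type.

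The other genes of the clock were read from a list of 15, of which 8 were tested. Ciart (Chrono), a repressor of the ARNTL and CLOCK pair, fell in all 4 comparisons, with differences of -0.46 and -0.54 in wild type above and below and -0.70 and -0.71 in Tg+ (limma adjusted p = 0.00923, 0.00626, 0.000562 and 0.000212). Timeless fell in wild type above (-0.38, adjusted p = 0.0436) and Tg+ below (-0.33, adjusted p = 0.0428). Cry2, a cryptochrome repressor, fell by 0.23 in both Tg+ pieces (adjusted p = 0.0374 above and 0.0253 below). Rora, an activator of ROR elements, fell in Tg+ below (-0.36, adjusted p = 0.00617). No gene of the list rose. In the same order as above, 2, 1, 2 and 4 of the 8 fell, beside 7.3%, 3.46%, 8.38% and 17.1% of all features. The list medians were -0.23, -0.15, -0.24 and -0.25, against 0 for all features. Clock, the partner of Arntl, passed nowhere (-0.10, 0.11, -0.12 and -0.15), and neither did Bhlhe40, Csnk1d or Csnk1e.

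A list of 12 genes known to follow the clock in heart or through D-boxes had 11 tested members. Usp2, a deubiquitinase with a strong daily rhythm in many tissues, fell in all 4 comparisons (-0.92, -0.57, -0.86 and -1.07; limma adjusted p = 0.00154, 0.0457, 0.00262 and 0.000246). Alas1, the first enzyme of heme synthesis, fell in all 4 too (-0.99, -0.77, -0.97 and -1.27; adjusted p = 0.00404, 0.032, 0.00445 and 0.000299). Tspan4, a tetraspanin, rose in 3 (1.04, 0.96 and 1.33; adjusted p = 0.0117, 0.0177 and 0.00123), and its wild-type difference below was 0.87 (adjusted p = 0.0507). Kcnip2, a subunit of the transient outward potassium channel, fell in Tg+ above (-0.56, adjusted p = 0.0403). Pik3r1, a regulatory subunit of PI3-kinase, fell in Tg+ below (-0.53, adjusted p = 0.0346). There Por, the electron donor of microsomal P450 enzymes, rose (1.20, adjusted p = 0.00287). Klf15, Dgat2, Ucp3, Nampt and Pdxk passed nowhere. Of the 11 genes, 1, 0, 1 and 2 rose in wild type above and below and Tg+ above and below. That was beside 5.96%, 2.14%, 6.94% and 15.3% of all features. In the same order 2, 2, 3 and 3 fell, beside 7.3%, 3.46%, 8.38% and 17.1%. The list medians were 0.02, -0.05, -0.34 and -0.47, against 0 for all features.

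**Figure D4:**
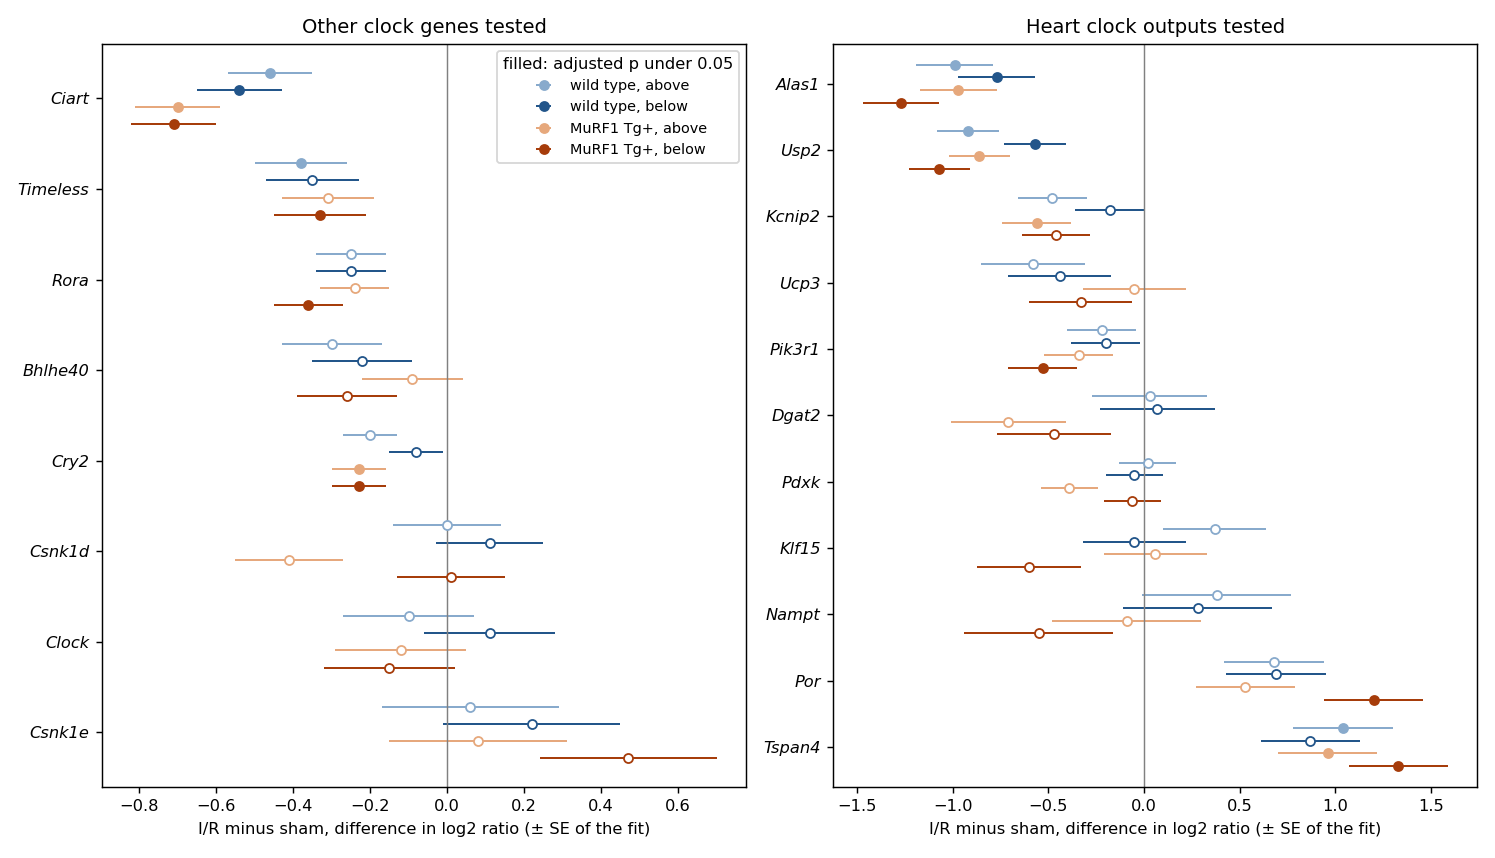
Difference in log2 ratio, I/R minus sham, with the standard error of the fit, for the 8 other clock genes and 11 heart clock outputs tested, in each genotype and piece; filled circles have a limma adjusted p under 0.05. Ciart, Usp2 and Alas1 are filled and left of 0 in all 4 comparisons.

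Per1 is also a direct target of the glucocorticoid receptor, so it was set beside a list of 16 glucocorticoid response genes, 15 of them tested with Per1 included. Of these, 6, 7, 11 and 9 rose and 1, 0, 0 and 1 fell in wild type above and below and Tg+ above and below. Of all features 5.96%, 2.14%, 6.94% and 15.3% rose and 7.3%, 3.46%, 8.38% and 17.1% fell. In wild type above the 6 that rose were Ddit4, Cdkn1a, Cebpd, Cebpb, Mt1 and Mt2. Klf9 fell there (-0.58, limma adjusted p = 0.0233). Fkbp5, Tsc22d3 and Sgk1 did not pass there (0.42, 0.42 and 0.29, adjusted p = 0.063, 0.249 and 0.614). Cebpd had the smallest p of the list in each comparison and rose by 2.09, 1.84, 1.88 and 1.86 (all ± 0.22; limma adjusted p = 3.23e-05, 0.000118, 5.46e-05 and 2.49e-05). Per1 was among the members that did not pass.

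Levels of the members were next compared between MuRF1 Tg+ and wild type. In sham hearts no member passed in either piece, beside 0.035% of all features above and 0.0263% below. The Dbp difference, Tg+ minus wild type, was -0.10 above (95% interval -0.61 to 0.40) and 0.09 below (-0.41 to 0.59). For Tef it was 0.09 (-0.21 to 0.40) and 0.08 (-0.22 to 0.39), and for Hlf 0.22 (-0.03 to 0.48) and 0.13 (-0.12 to 0.39). After I/R again no member passed, beside 0.657% of all features above and 2.9% below. The limma adjusted p of every member in sham hearts was 1.00.

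After I/R the nearest to the threshold were Per1 above and Arntl below. Per1 read -0.61, -0.30 and -0.59 in wild type and -0.10, -0.19 and -0.12 in Tg+ above the tie, without overlap; 7.09% of all features stood higher in this way (difference 0.37 ± 0.10, limma adjusted p = 0.10). In wild type -0.61 and -0.30 were on weak arrays, and at -0.30 Per1 was not well above background. The Per1 difference passed with no background correction (0.46, adjusted p = 0.0429) and with array weights (0.42, adjusted p = 0.0172). Arntl below the tie read 0.11, 0.12 and 0.23 in wild type and -0.25, -0.13 and -0.25 in Tg+, without overlap; 5.82% of all features stood lower in this way (-0.36 ± 0.11, adjusted p = 0.0759). It was not well above background on any Tg+ array of that group and was so on 2 of the 3 wild-type arrays. The mean normalized log2 Cy5 signal was 6.35 in the wild-type group and 6.00 in the Tg+ group. The wild-type mean includes replicate 1, a weak array where Arntl was not well above background. The Arntl difference passed when replicate 1 of wild-type I/R below was left out (-0.38, adjusted p = 0.0179), with the Cy5 channel alone (-0.52, adjusted p = 0.00739) and with array weights (-0.39, adjusted p = 0.0204).

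Pieces below the tie were compared with pieces above it. In sham hearts no member passed in either genotype, and 0% of all features did (0 of 11418 in wild type and 0 of 11419 in Tg+; the smallest unadjusted p of a member was 0.279). In wild-type I/R hearts no member passed beside 0.0175% of all features, and in Tg+ I/R hearts none did beside 0.482%. There Dbp was lower below than above by 0.71 (log2 -0.71 ± 0.24, limma adjusted p = 0.127) and Tef by 0.36 (-0.36 ± 0.14, adjusted p = 0.175), and Dbp overlapped between the pieces. Nr1d2 read 0.66, 0.10 and 0.25 below against 1.18, 0.87 and 0.67 above, without overlap; 10.9% of all features stood lower in this way (-0.57 ± 0.25, adjusted p = 0.196). The lower 2 of those Nr1d2 values below were on weak arrays.

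Pieces with the same number were taken as 1 heart, so the Tg+ I/R hearts were also read one by one. Below minus above, Dbp differed by -0.14, -1.33 and -0.65 in replicates 1 to 3, Tef by -0.44, -0.10 and -0.53, Nr1d2 by -0.52, -0.77 and -0.42, and Arntl by -0.28, -0.21 and -0.17. Per1 and Nr1d1 were lower below in all 3 hearts too, which makes 6 of the 9 members, beside 25.7% of all features. In replicates 2 and 3 the array below was a weak one. With the heart as a random block no member passed (limma adjusted p = 0.0985 for Dbp, 0.137 for Tef, 0.161 for Nr1d2 and 0.198 for Arntl). In wild-type I/R hearts Hlf was the member lower below in all 3 hearts (-0.05, -0.05 and -0.07). Without I/R, in Tg+ sham hearts, Tef, Hlf, Nr1d1 and Nr1d2 were also lower below in all 3 hearts. There Tef differed by -0.10, -0.02 and -0.03 and Nr1d1 by -0.04, -0.02 and -0.20. Hlf differed by -0.10, -0.07 and -0.22 and Nr1d2 by -0.15, -0.37 and -0.31, while Dbp was higher below (0.25, 0.28 and 0.07). The share of all features lower below in all 3 hearts was not counted for wild-type I/R or Tg+ sham hearts. The sign of the Tef, Nr1d1 and Nr1d2 differences in Tg+ hearts was thus the same in sham and I/R.

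The response to I/R was not shown to differ between genotypes or pieces for any member. The interaction of genotype and surgery gave no call for a member above or below, where 0.0175% of all features passed in each piece. For Dbp it was 0.42 ± 0.33 above and -0.27 ± 0.33 below (limma adjusted p = 0.842 and 0.716). For Per1 above it was 0.36 ± 0.14 (adjusted p = 0.479), and for Arntl below -0.35 ± 0.16 (adjusted p = 0.442). The interaction of piece and surgery gave no call among the members, beside 0% of all features in each genotype. In Tg+ hearts that of Dbp was -0.91 ± 0.33 (unadjusted p = 0.014, adjusted p = 0.772 in limma), and in wild type it was -0.21 ± 0.33 (adjusted p = 1.00).

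Within the sham groups the members varied from heart to heart in a common pattern in 1 heart. In Tg+ sham replicate 2 Arntl stood 0.25 above its group's mean in the piece above and 0.20 above it in the piece below. In the same pieces Dbp stood at -0.26 and -0.18 from the group mean, Tef at -0.26 and -0.23, Hlf at -0.24 and -0.18, and Nr1d2 at -0.21 and -0.30. Both pieces of this heart therefore had the highest Arntl and the lowest Dbp, Tef, Hlf and Nr1d2 of their groups. Among Tg+ sham arrays, Arntl was well above background on those of this replicate only. Over all features the deviations of its pieces correlated at r = 0.398. The share of all features at an extreme in both pieces of this heart was not counted. In wild-type sham hearts Tef stayed within 0.06 of its group mean, and its SD was 0.03 above and 0.05 below, against 0.23 and 0.20 in Tg+. That the pieces with 1 number come from 1 heart is inferred from the numbers in the labels.

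**Figure D5:**
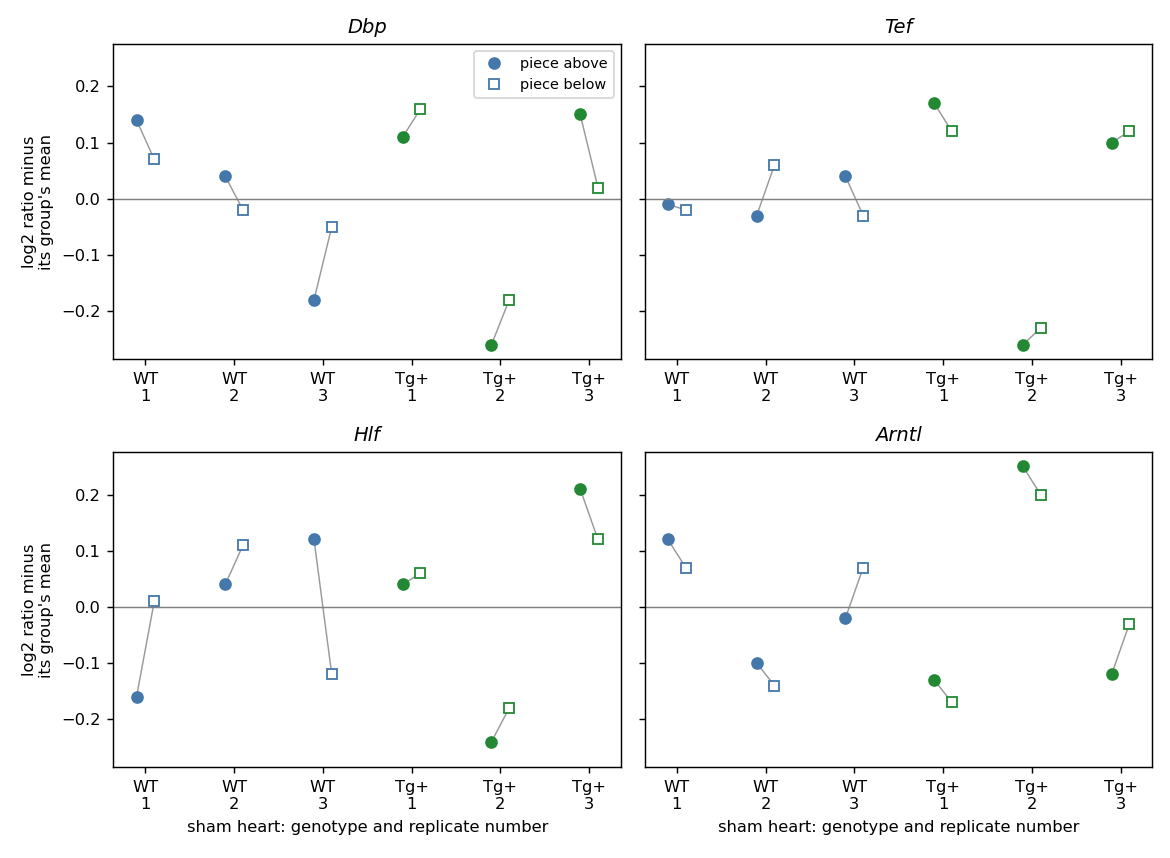
Deviation of the log2 ratio from the group mean in the 6 sham hearts, for the piece above (filled circles) and the piece below (open squares), wild type in blue and Tg+ in green. In Tg+ replicate 2 both pieces have the highest Arntl and the lowest Dbp, Tef and Hlf of their groups. Among the Tg+ arrays shown, Arntl is well above background on those of this replicate only.

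Across the 24 arrays, the pattern of Dbp was most like that of Hopx (Pearson r = 0.966), Mmut (0.957) and Colec11 (0.956), given as a description, since all arrays share the reference and fall into sham and I/R. For Nfil3 the closest were the chemokine gene Ccl2 (0.917), the heat shock gene Hspa1a (0.901) and Uck2 (0.899). For Per1 the closest were Sun2 (0.752), Haghl (0.751) and Srrm2 (0.731), and for Arntl they were Stag2 (0.794), Scx (0.751) and AK081751 (0.739).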

How the data were processed

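Heart RNA (50 ng, amplified and labelled) was hybridised to 24 two-colour arrays, with the heart in Cy5 and the pup reference in Cy3 on each and no dye swap, per the labels; a protocol text in the labels names Cy3-CTP instead. Per the file headers, Feature Extraction 9.5.3.1 gave the intensity of each spot and a log10 ratio of red over green that was background-subtracted and dye-normalized by that software. The deposited value table holds log2 ratio values that correlated with each array's own ratios at 0.986 or more; the sources used here do not state its centring.

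The mean intensity and the background median were corrected with normexp (offset 50) and normalized by loess within each array in limma 3.58.1 under R 4.3.3, with control and outlier spots at weight 0. The offset pulls dim ratios toward 0. Of 41174 probes, 15412 were kept, those whose Cy5 spots were well above background on every one of the 3 arrays in some group. No spot was saturated (0). Gene names were updated from a RefSeq table (22951 probes matched by accession, 18223 did not, and 3109 were updated by an older symbol).

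All 24 arrays entered 1 limma fit of 8 group means (16 residual degrees of freedom), with Benjamini-Hochberg adjustment over all features in each of 16 comparisons and a threshold of 0.05. All groups share 1 estimate of the spread, although the median SD within a group was 0.07 to 0.10 in sham and 0.12 to 0.22 in I/R groups. In simulated data for I/R against sham in wild type above (11343 features), 46% of changes of 0.5, 76% of 1, 98% of 1.5 and 94% of -1 on the log2 scale were recovered. Each size was given to 50 features, and there were 5 false calls. The simulation gave a feature the same spread in every group and had no weak arrays. Its shares are therefore not the recovery in the I/R data.

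The members and the gene lists were chosen with earlier results of these data known. Some listed clock genes are not reported here, and the counts and medians of the list were computed without them. Named were all members, the listed clock and output genes that passed in an I/R comparison, and the glucocorticoid gene with the smallest p. Also named were other glucocorticoid genes in wild type above and the 3 features with the most similar pattern to each of 4 members. Pieces of the same genotype, surgery and number were taken as 1 heart, from the numbers in the labels. Over 12 such pairs the correlation of deviations was -0.735 to 0.539 (median 0.27), and 8 were over 0.1. Over 24 pairs of pieces with different numbers it was -0.741 to 0.79 (median -0.0718), and 8 were over 0.1. These ranges overlap, so the correlations do not settle which pieces share a heart. Numbers shared by sham and I/R hearts (3 of 12 over 0.1) or by the genotypes (1 of 12) did not pair samples.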

Additional observations from a re-analysis of the deposited data

How the results depend on the processing

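Other ratios (uncorrected, Agilent's, Cy5 alone, the deposited value table), other fits (blocks for slide, replicate number or heart, array weights, the compared arrays by themselves), other probes (unfiltered, or averaged by gene) and other arrays (without the 5 weak ones, or without each in turn) were tried. No called member difference reversed (0): of the values under the alternatives, 2706 kept their direction and side of the threshold or were uncalled before and after, 39 gained a call and 63 lost one. These values cover all 144 member differences. Only a difference called in the main fit could lose a call, and these were 4, 5, 5 and 5 in the I/R comparisons. The 63 are therefore a larger share of what could be lost than of all values. The number of members called in wild type above (4) became 1 with slide as a block and 7 with array weights. In wild type below (5) it was 3 with Agilent's ratio, 3 with Cy5 alone, 3 with the value table, 0 with slide as a block and 0 with only its 6 arrays. In Tg+ above (5) it was 1 with Agilent's ratio, 1 with the value table, 3 without the filter and 2 with slide as a block, and in Tg+ below (5) it was 3 with slide as a block. For Tg+ against wild type after I/R (0), 1 member passed above with no background correction and 1 with array weights, and below 2 passed with Cy5 alone, 4 with array weights and 1 without the weak arrays. With array weights 1 passed between the pieces of wild-type and 3 between those of Tg+ I/R hearts, 2 and 3 in the interaction of genotype and surgery above and below, and 1 in that of piece and surgery in Tg+. The cause of these shifts was not tested.

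Leaving out 1 array gave 4 to 5 members in wild type above, 3 to 4 in wild type below (3 without sham replicate 1 or 2), 2 to 7 in Tg+ above (2 without sham replicate 1 or 3 or I/R replicate 2 or 3, and 7 without sham replicate 2) and 5 to 6 in Tg+ below. For Tg+ against wild type below after I/R it gave 0 to 3 (3 without wild-type I/R replicate 1), for the pieces of Tg+ I/R hearts 0 to 1 (1 without the piece below of replicate 1) and for genotype and surgery below 0 to 1 (1 without wild-type I/R replicate 1). The replicate number as a block left 4, 4, 5 and 5 members in the I/R comparisons and ended 1 call, that of Arntl in wild type below (adjusted p = 0.0591); the heart as a random block left 4, 5, 5 and 5. Dim signal limits Per2, Arntl and Per3, which were well above background on 11, 12 and 0 of 24 arrays. It also limits Hlf and Nr1d1 (each on 7 of 12 I/R arrays), Nr1d2 and Per1 (each on 9) and Tef (on 10). Small changes there were therefore not detectable here.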
